A study of Mus musculus with 6 samples.

Results

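Oxidative phosphorylation (OXPHOS) subunits were followed in splenic NK cells that lacked METTL3, the catalytic subunit of the enzyme complex that writes m6A on RNA. The genes were taken by symbol, as all listed genes beginning with Nduf, Uqcr, Atp5 or mt-, with Cox4 to Cox8, or named Sdha, Sdhb, Sdhc or Sdhd. This rule gave 104 of the 14490 listed genes. They comprise 77 nuclear genes for subunits of complexes I to V, 8 nuclear genes for complex I assembly factors (Ndufaf1 to Ndufaf8), 3 other nuclear genes that the symbols capture (Cox7a2l, Atp5s and Atp5sl), and 16 mitochondrially encoded genes, of which 13 are mRNAs, 2 are rRNAs and 1 is a tRNA.

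The mRNA of NK cells sorted by FACS from spleens was sequenced in 3 WT and 3 cKO samples, and the question put here is how the 2 genomes that build the respiratory chain were expressed without METTL3. All mice were C57BL/6 and were used at 6 to 10 weeks of age. WT mice carried Mettl3fl/fl alone, and cKO mice carried Ncr1Cre-Mettl3fl/fl, in which Cre, written as Ncr1Cre/+ in the study's methods, is driven by Ncr1, the gene for the receptor NKp46 of NK and related lymphoid cells. The floxed allele was thus common to both genotypes, the Cre allele was found in cKO only, and its effect cannot be told apart from that of the deletion. Nothing in the labels says whether a sample came from 1 mouse or from pooled mice, so p-values measure the spread between these samples. The values are read counts divided by the sample's size factor, called normalized counts below.

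Oxidative phosphorylation couples the oxidation of NADH and succinate to the making of ATP at the inner mitochondrial membrane. Complexes I and II pass electrons to coenzyme Q, complex III passes them to cytochrome c, complex IV passes them to oxygen, and complex V uses the proton gradient to make ATP. Complex II is encoded by nuclear genes alone, while the other complexes combine nuclear subunits with subunits from mitochondrial DNA. Resting NK cells have low rates of respiration, which rise upon activation by cytokines, and this machinery is needed for the response.

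Mettl3 was first checked in every sample. Its normalized counts were 1303, 1258 and 1192 in WT and 297, 299 and 405 in cKO, a log2 fold change of −1.92 (SE 0.0986, limma adjusted p = 2.32e-14). The groups did not overlap, and the exact permutation test over samples gave p = 0.1, the smallest it can give with 3 against 3. Reads on listed genes ranged from 55965515 to 71464042 per sample. Of the 10 NK cell markers examined all were listed, 5 were lower in cKO, and 2 were higher (Tbx21 and Il2rb, log2 fold changes 0.23 and 0.14), with sums of 884011 to 911880 in WT and 856247 to 894346 in cKO. Ncr1 itself fell, from 22147 to 22707 in WT to 16678 to 17138 in cKO (log2 fold change −0.40, limma adjusted p = 3.56e-11). Of 10 B cell markers 8 were higher in cKO, and their summed normalized counts were 1444 to 1455 in WT and 1987 to 2067 in cKO. Marker counts are to be read against the 17.8% of all listed genes called higher and the 18.8% called lower (limma adjusted p under 0.05). None of the 8 listed T cell markers was higher in cKO and 1 was lower (sum 2826 to 3106 in WT, 2513 to 2750 in cKO). Of 8 myeloid markers 3 were higher and 1 was lower (sum 61441 to 62371 and 61265 to 63098). Most of the myeloid sum was Itgam, with 50884 to 51368 in WT and 50586 to 51902 in cKO. Its product CD11b was also used in the study to stage NK cells, so this sum does not measure myeloid cells. None of 6 erythroid markers was called (sum 823 to 888 and 707 to 839.7). No listed marker of these cells was at 0 in a whole genotype, and the part of other cells in the results below was not tested.

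Most nuclear OXPHOS subunits were lower in cKO NK cells, each by a small amount. A gene was called where the adjusted p of limma was under 0.05. Of 77 nuclear subunits 54 fell, 2 rose and 21 were not called, and the median log2 fold change was −0.18 (interquartile range −0.25 to −0.11), a median change of −11.8%. Over all listed genes 18.8% were called lower and 17.8% higher, with a median log2 fold change of 0.0014. The counts of each complex and class below are to be read against these shares. The estimate was below 0 for 70 of the 77. The 3 WT and 3 cKO values did not overlap for 53 of them, which was also so for 45.7% of all listed genes. The largest changes named below for each class and list were taken only from called genes without overlap. Their separation was thus set by that choice and is no further result. Bulk samples cannot tell less RNA per cell from fewer cells that carry it.

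**Figure D1:**
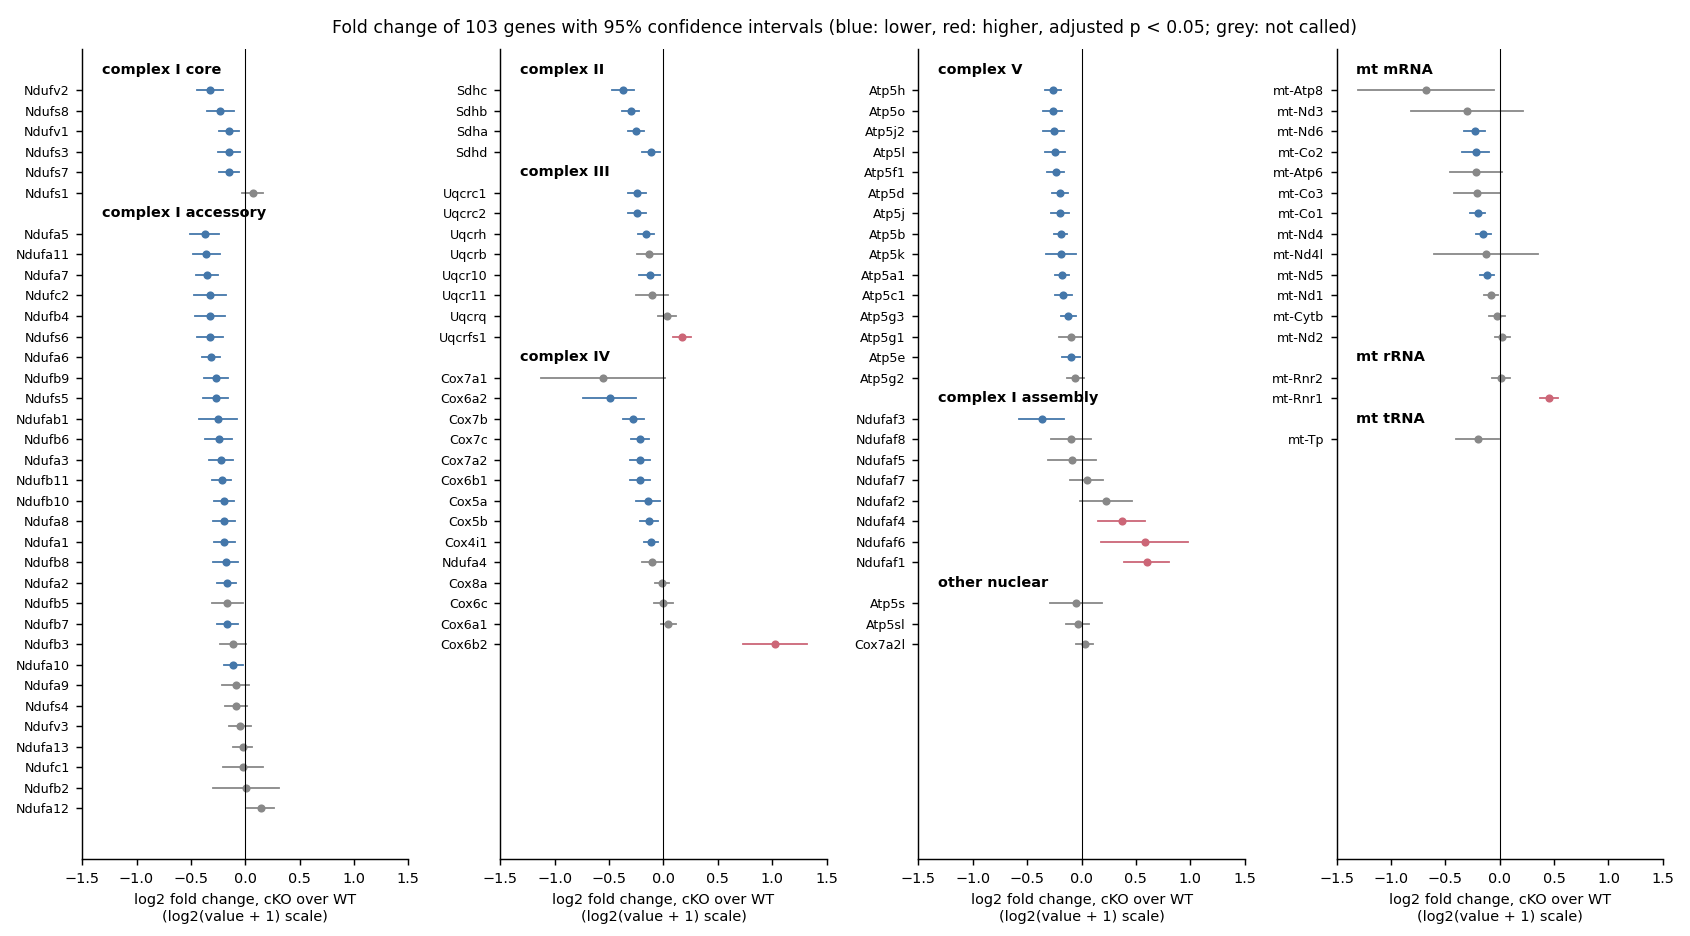
Fold change of 103 of the 104 genes, by complex and genome. Points are log2 fold changes of cKO over WT with 95% confidence intervals of the limma fit over all genes, coloured by call. Most nuclear subunits sit left of 0, Cox6b2 sits far to the right at 1.03, and 3 complex I assembly factors and mt-Rnr1 stand on the right as well.

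The summed level moved the same way. The 77 nuclear subunits together held 411976, 429171 and 410748 normalized counts in WT and 378663, 384436 and 363958 in cKO, so that every cKO sample lay below every WT sample. The mean fell from 417298 ± 10300 (SD, n = 3) to 375686 ± 10559 (SD, n = 3), a change of −9.97%. The sum over all listed genes was also lower in every cKO sample than in every WT sample, a change of −3.38%. With the 6 samples scaled to equal totals over all listed genes, the change of the nuclear subunits was −6.83%. By complex, the change of the sum was −16.0% for complex II, −11.8% for complex V, −11.2% for the nuclear part of complex I, −5.94% for complex IV and −5.59% for complex III. The sums of the genotypes did not overlap for any of these 5. With equal totals the changes of complex III and complex IV shrank to −2.30% and −2.66%, and their values then overlapped between genotypes, while those of complexes I, II and V stayed apart. Within cKO, replicate 3 held the lowest sum for each complex.

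**Figure D2:**
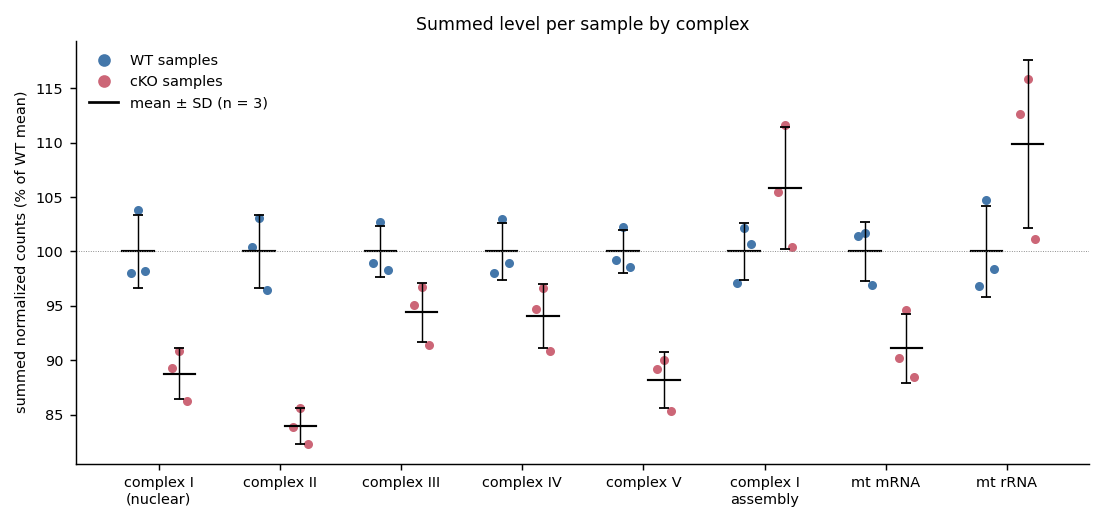
Summed normalized counts of each class per sample, as a percent of the WT mean. Points are samples, and bars are the mean ± SD of 3 samples. WT and cKO points, shown without scaling to equal totals, are apart for the 5 complexes and the mt mRNAs, and overlap for complex I assembly factors and mt rRNAs.

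Promoters of these genes are known to be bound by NRF1, by GABPA and other ETS factors, and by YY1, which are general activators of respiratory genes. Promoter windows of RefSeq on GRCm38.p6, from 250 bases before to 50 bases after the start, were found for 65 of the 77 nuclear subunits, as 70 windows. The stretches just before the start are shown for 2 subunits that fell, Ndufa11 and Sdhd, and for an assembly factor and a subunit that rose, Ndufaf1 and Cox6b2. Capitals mark the NRF1 letters GCGCATGC in Ndufa11 and the ETS core CCGGAAG in Sdhd and Ndufaf1, read on either strand, and the Cox6b2 stretch holds neither.
Ndufa11, chr17:56717687-56717761, + strand: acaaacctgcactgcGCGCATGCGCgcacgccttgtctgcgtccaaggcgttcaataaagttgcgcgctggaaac
Sdhd, chr9:50603850-50603909, − strand: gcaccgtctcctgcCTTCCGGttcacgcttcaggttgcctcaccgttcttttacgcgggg
Ndufaf1, chr2:119662835-119662934, − strand: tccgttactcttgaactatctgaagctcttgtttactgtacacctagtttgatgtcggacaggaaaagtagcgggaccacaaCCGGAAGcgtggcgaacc
Cox6b2, chr7:4753095-4753194, − strand: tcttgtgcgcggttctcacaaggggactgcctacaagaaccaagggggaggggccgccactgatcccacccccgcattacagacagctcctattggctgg

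The NRF1 letters GCGCATGC stood in 14.3% of the 70 windows of nuclear subunits, in 5.21% of the windows of all listed genes and in 2.71% of all RefSeq windows. The ETS core CCGGAAG stood in 22.9%, 17.6% and 8.86% of these windows, and the YY1 letters AANATGGCG in 14.3%, 4.92% and 2.38%. Subunits called lower and those not called lower can be set side by side. The NRF1 letters were in 13.5% of 52 windows of the former and 16.7% of 18 windows of the latter, the ETS core in 25% and 16.7%, and the YY1 letters in 13.5% and 16.7%. A match describes these letters only and is not a measured binding site.

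Complex II links the citric acid cycle to the respiratory chain, and all 4 of its subunits fell, with a median log2 fold change of −0.28. Sdhc, a membrane anchor subunit on chromosome 1 (171127165 to 171150603, − strand), had 2558, 2733 and 2630 normalized counts in WT and 2134, 2076 and 1919 in cKO. Its log2 fold change was −0.37 (SE 0.0504, adjusted p = 1.51e-06). Every cKO value lay below every WT value, and so it was for the other subunits. Sdhb, the iron-sulfur subunit on chromosome 4 (140961203 to 140979193, + strand), went from 5216, 5536 and 5250.3 to 4354, 4305 and 4339, a log2 fold change of −0.30 (SE 0.0385, adjusted p = 6.6e-07). Sdha, the flavoprotein that oxidizes succinate, went from 10642, 10661 and 9815 to 8554, 9037 and 8550.4, a log2 fold change of −0.25 (SE 0.0372, adjusted p = 5.64e-06). Sdhd, the other membrane anchor, had the smallest change, from 3741, 3827 and 3604 to 3479, 3485 and 3355 (log2 fold change −0.11, SE 0.0418, adjusted p = 0.033). The call of Sdhd was lost with equal totals (log2 fold change −0.065, adjusted p = 0.217) and without any of 4 of the 6 samples, WT 1, WT 2, cKO 1 or cKO 3, where the adjusted p ranged from 0.0625 to 0.129.

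Complex I oxidizes NADH, and of its 36 nuclear subunits 25 fell and none rose, with a median log2 fold change of −0.19. Among the 7 core subunits, which carry the redox centres, 5 fell. Ndufv2, an iron-sulfur subunit of the NADH-oxidizing part, had 2121, 2497 and 2095 normalized counts in WT and 1836, 1810.2 and 1701 in cKO (log2 fold change −0.32, SE 0.0595, adjusted p = 9.14e-05). Ndufs8, an iron-sulfur subunit of the arm that leads electrons to coenzyme Q, went from 1784, 1999.9 and 1807 to 1528, 1711 and 1534 (log2 fold change −0.23, SE 0.0589, adjusted p = 0.00309). For both, the WT and cKO values were apart, as the choice of these genes required. Ndufs1, with a mean of 2546 ± 90.9 in WT and 2669 ± 99.1 in cKO (SD, n = 3 each), was not called, but was called higher with equal totals (log2 fold change 0.12, adjusted p = 0.0438).

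Of the 29 accessory subunits of complex I, which surround the core and are needed for its assembly and stability, 20 fell and 9 were not called. Ndufa5 on chromosome 6 (24518666 to 24528013, − strand) had 1612, 1913 and 1638 normalized counts in WT and 1311, 1409 and 1262 in cKO, a log2 fold change of −0.37 (SE 0.0647, adjusted p = 4.71e-05). Ndufa11 on chromosome 17 (56717767 to 56722141, + strand), a membrane subunit, went from 1378, 1472 and 1435 to 1151, 1105 and 1086, a log2 fold change of −0.36 (SE 0.0597, adjusted p = 2.7e-05). The values of both genes were apart between genotypes, and 12.8% of the exon bases of Ndufa11 overlap Vmac on the other strand. The log2 fold changes of the 29 ran from −0.37 (Ndufa5) to 0.14 (Ndufa12, adjusted p = 0.0697). Ndufa12 was called higher with equal totals (adjusted p = 0.0137) and without WT replicate 1 (adjusted p = 0.0184).

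The assembly factors of complex I, which help to build it and are absent from the finished enzyme, were counted apart. Of 8 factors 3 rose and 1 fell, with a median log2 fold change of 0.14, beside 17.8% of all listed genes higher and 18.8% lower. A set of 8 genes is small for such a comparison. Ndufaf1 on chromosome 2 (119655446 to 119662827, − strand), a factor for the membrane arm, had 355, 328 and 336 normalized counts in WT and 548, 508 and 487 in cKO, a log2 fold change of 0.60 (SE 0.0995, adjusted p = 2.71e-05). Ndufaf6 went from 82.4, 91.6 and 91.7 to 115, 136 and 149 (log2 fold change 0.58, SE 0.194, adjusted p = 0.0202), and Ndufaf4 from 367, 490.1 and 403 to 572, 542 and 506 (log2 fold change 0.37, SE 0.105, adjusted p = 0.00649). Ndufaf3 fell from 560.1, 559 and 617 to 457, 511 and 385 (log2 fold change −0.37, SE 0.101, adjusted p = 0.0051). In all 4 the groups were apart. Of the 3 rises, that of Ndufaf1 was called in each of the 6 fits that left out a sample. Ndufaf4 was not called without WT replicate 1 (adjusted p = 0.0541), nor Ndufaf6 without WT replicate 1, cKO replicate 2 or cKO replicate 3 (adjusted p above the threshold in each, the lowest 0.0606), nor Ndufaf3 without cKO replicate 3 (adjusted p = 0.0542). The summed level of the 8 factors overlapped between genotypes, with 3672 to 3863 in WT and 3797 to 4219 in cKO.

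Complex III carries electrons from coenzyme Q to cytochrome c, and of its 8 nuclear subunits under the rule 4 fell and 1 rose. Its nuclear subunit Cyc1 has a symbol outside the rule and is counted in a further list below. Cyc1 was not called (log2 fold change −0.032, adjusted p = 0.592). The core proteins Uqcrc1 and Uqcrc2 fell together. Uqcrc1 had 5992, 5558 and 5878 normalized counts in WT and 4946, 4839 and 4925 in cKO (log2 fold change −0.24, SE 0.0385, adjusted p = 1.32e-05). Uqcrc2 went from 4945, 5097 and 4860 to 4264, 4266 and 4079.5 (log2 fold change −0.24, SE 0.0392, adjusted p = 1.99e-05). Uqcrfs1, the Rieske iron-sulfur protein and a catalytic subunit, on chromosome 13 (30540308 to 30545362, − strand), went the other way, from 6989, 6959.7 and 6593 in WT to 7534, 8278 and 7389.9 in cKO (log2 fold change 0.17, SE 0.0406, adjusted p = 0.00122). No values of these 3 genes overlapped between genotypes. Uqcrh and Uqcr10 made up the rest of the falls, with log2 fold changes of −0.16 and −0.13, and the values of Uqcr10 overlapped. Uqcr10 was not called with equal totals (adjusted p = 0.221), nor without WT replicate 2, WT replicate 3, cKO replicate 2 or cKO replicate 3 (adjusted p of 0.0714 to 0.219).

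Complex IV reduces oxygen, and several of its subunits exist as isoforms from different genes. Of 14 nuclear subunits 8 fell, 1 rose and 5 were not called, with a median log2 fold change of −0.14. The rise was that of Cox6b2 on chromosome 7 (4751792 to 4753094, − strand), known as the testis isoform of subunit 6b, which had 136, 149.9 and 158 normalized counts in WT and 296, 276 and 337 in cKO. Its mean went from 148 ± 11.1 to 303 ± 30.7 (SD, n = 3 each), a log2 fold change of 1.03 (SE 0.142, adjusted p = 1.93e-06), the largest in size among the 104 genes. The usual isoform Cox6b1 fell, from 4767, 4974 and 4716 to 4211, 4396 and 3876 (log2 fold change −0.21, SE 0.044, adjusted p = 0.000352). Per kilobase of transcript, Cox6b2 had 253 normalized counts in WT and 518 in cKO, and Cox6b1 had 7798 and 6733.

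The isoforms of subunit 6a also differed. Cox6a2, the heart and muscle isoform, on chromosome 7 (128205435 to 128206387, − strand), had 405, 387 and 339.6 normalized counts in WT and 236, 282 and 285 in cKO, a log2 fold change of −0.49 (SE 0.12, adjusted p = 0.00179), with no overlap. Cox6a1, the form of most tissues, had 15648 ± 564 in WT and 16129 ± 587 in cKO (SD, n = 3 each), overlapping values with an adjusted p of 0.349. It was called higher with equal totals (log2 fold change 0.093, adjusted p = 0.0225). Of the exon bases of Cox6a2, 10.3% overlap Itgad on the other strand. Cox7a2 fell (log2 fold change −0.22, adjusted p = 0.000319), while the muscle isoform Cox7a1 was near the low end of detection, with 60.7 to 82.0 in WT and 33.6 to 62.0 in cKO, and was not called (adjusted p = 0.12). Cox7a2l, which is related to them, was not called (log2 fold change 0.027, adjusted p = 0.605).

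Of the other complex IV subunits, Cox7b had the largest fall, from 4177, 4519.6 and 4372 to 3832, 3599 and 3364 (log2 fold change −0.28, SE 0.0462, adjusted p = 2.75e-05). The groups were apart. Cox4i1, Cox5a and Cox5b fell less, with log2 fold changes of −0.12, −0.14 and −0.13 and adjusted p-values of 0.00433, 0.0339 and 0.00969. These 3 calls were lost with equal totals, where the adjusted p-values were 0.07, 0.169 and 0.0974, and those of Cox5a and Cox5b also without WT replicate 2 or cKO replicate 3 (adjusted p of 0.0755 to 0.218). Cox5a was not called without WT replicate 3 or cKO replicate 1 either (adjusted p of 0.0509 and 0.0546). Cox8a, with 17513 ± 448 in WT and 17368 ± 472 in cKO (SD, n = 3 each), and Ndufa4 (log2 fold change −0.11, adjusted p = 0.0645) were not called. Ndufa4 was called lower without WT replicate 1 (adjusted p = 0.0348) and without cKO replicate 2 (adjusted p = 0.0379).

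Complex V makes ATP, and its estimates were below 0 for all 15 nuclear subunits, of which 13 fell. Atp5a1 and Atp5b, subunits of the head of complex V and among the members with the highest normalized counts, fell by 0.18 and 0.19 on the log2 scale (adjusted p = 3.17e-05 and 1.22e-05). Atp5h, a stalk subunit on chromosome 11 (115415689 to 115419962, − strand), had 11512, 12247 and 12068 normalized counts in WT and 9929, 10329 and 9528 in cKO, a log2 fold change of −0.27 (SE 0.0358, adjusted p = 1.25e-06). Atp5o, the subunit that joins the stalk to the head, went from 3819, 3759 and 3669 to 3153, 3226 and 2991 (log2 fold change −0.26, SE 0.0429, adjusted p = 1.99e-05). All cKO values were below all WT values in these genes. Shared sequence bears on both. Of the 75-base windows of Atp5h 14.6% are found in another gene. Of those of Atp5o 34.2% are found in other annotation entries, which include another entry of Atp5o itself. The exon bases of Atp5o overlap by 48.6% with that entry and with D430001F17Rik on the other strand.

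The subunit c ring of complex V is encoded by 3 genes that give the same mature protein. Atp5g3 fell (log2 fold change −0.12, adjusted p = 0.00451), while Atp5g1 (−0.10, adjusted p = 0.125) and Atp5g2 (−0.057, adjusted p = 0.243) were not called. The call of Atp5g3 was lost with equal totals (adjusted p = 0.0657), and Atp5g1 was called lower without WT replicate 2 (adjusted p = 0.0442). Levels per kilobase ran from 518 normalized counts for Atp5g1 to 25068 for Atp5e within complex V in WT.

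The mitochondrial genome is transcribed as long precursors from both strands, which are then cut into rRNAs, tRNAs and mRNAs. Of the 13 mitochondrially encoded mRNAs 5 fell, none rose and 8 were not called, beside 18.8% of all listed genes lower and 17.8% higher. The median log2 fold change of the 13 was −0.20. Their summed level was 632178, 633784 and 603904 normalized counts in WT and 562382, 589843 and 551172 in cKO. Every cKO sum was below every WT sum, a change of −8.90% in the mean. By complex, only the sum of the 3 complex IV mRNAs was apart between genotypes, with a change of −13.1%. The sums overlapped for the mRNAs of complex I (−5.63%), complex III (−1.74%) and complex V (−16.1%). The ratio of the sum of all 13 to that of the nuclear subunits was 1.54, 1.48 and 1.47 in WT and 1.49, 1.53 and 1.51 in cKO, and these values overlapped.

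**Figure D3:**
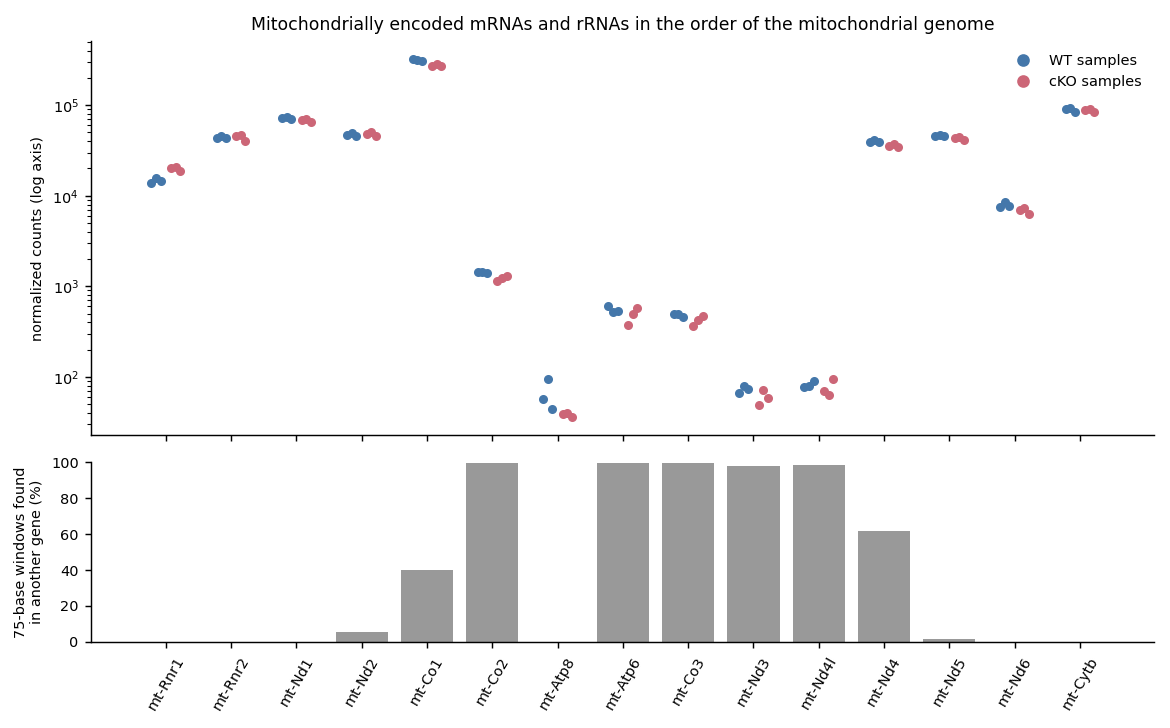
Mitochondrially encoded genes in the order of the mitochondrial genome. The upper panel gives normalized counts of each sample on a log axis, and the lower panel gives the percent of the 75-base windows of each gene that are found in another gene. The rise of mt-Rnr1 and the fall of mt-Co1 are visible, and the genes with few counts include mt-Co2, mt-Atp6, mt-Co3, mt-Nd3 and mt-Nd4l, whose windows are nearly all shared.

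mt-Co1, the catalytic subunit of complex IV, had the most counts of the 13. It had 326500, 315890 and 308500 normalized counts in WT and 268490, 287080 and 270790 in cKO, a log2 fold change of −0.20 (SE 0.0331, adjusted p = 2.07e-05). Its values were apart between genotypes. The other genes that fell were mt-Nd6 (7580, 8602 and 7758 in WT, 6875, 7267 and 6246 in cKO, log2 fold change −0.23, adjusted p = 0.000313), mt-Co2 (1427, 1437 and 1401, then 1143, 1229.5 and 1289, −0.22, adjusted p = 0.00476), mt-Nd4 (38940, 41787 and 39016, then 35829, 37177 and 34768, −0.15, adjusted p = 0.000614) and mt-Nd5 (46232, 47281 and 45923, then 43220, 44088 and 40968, −0.12, adjusted p = 0.00298). mt-Nd6 is the only mRNA of the other strand, and it overlaps mt-Nd5 in 2.70% of its bases.

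The other mRNAs with many counts were not called. mt-Cytb, the complex III subunit, had 90800, 93072 and 85118 in WT and 88389, 91368 and 84554 in cKO (log2 fold change −0.025, adjusted p = 0.615). mt-Nd2 had 47053, 49602 and 45426, then 48220, 50097 and 46108 (log2 fold change 0.024, adjusted p = 0.635). mt-Nd1 had 72344, 74846 and 69561, then 69320, 70440 and 65218 (log2 fold change −0.081, adjusted p = 0.0583). It was called lower with limma-voom (adjusted p = 0.0392), without WT replicate 3 (adjusted p = 0.0217) and without cKO replicate 2 (adjusted p = 0.0252). The values of the genotypes overlapped in all 3. Among the mRNAs with few counts, mt-Co3 and mt-Atp6 were called lower without cKO replicate 3 (adjusted p of 0.0434 and 0.0193) and mt-Atp8 without WT replicate 3 (adjusted p = 0.0294).

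Neither rRNA was called lower. mt-Rnr1, the 12S rRNA of the small mitochondrial ribosomal subunit (bases 70 to 1024 of the mitochondrial genome, + strand), rose from 13855, 15898 and 14448 to 20391, 21028 and 18990, a log2 fold change of 0.45 (SE 0.0413, adjusted p = 1.95e-09). Every cKO value was above every WT value. mt-Rnr2, the 16S rRNA, had 43186, 45845 and 43561 in WT and 46009, 47213 and 40611 in cKO, with overlap and an adjusted p of 0.864. The libraries were made from polyA RNA, so these values count rRNA molecules that were carried through that selection. The tRNA listed, mt-Tp, had 469 to 577 in WT and 453 to 462 in cKO and was not called (adjusted p = 0.1), but was called lower without WT replicate 3 (adjusted p = 0.0318).

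Nuclear copies of mitochondrial DNA limit some of these values. Of the 75-base windows of mt-Co2, mt-Atp6, mt-Co3, mt-Nd4l and mt-Nd3, between 97.8% and 99.9% are found in another gene, mainly a stretch of chromosome 1 (24611535 to 24616197, − strand) that holds 7 listed copies. The share was 61.5% for mt-Nd4, 39.8% for mt-Co1, 5.71% for mt-Nd2, 1.66% for mt-Nd5 and 0 for mt-Nd1, mt-Cytb, mt-Nd6, mt-Atp8 and both rRNAs. Summed with its copy Gm29216, mt-Co1 changed by −13.1%, and mt-Nd4 with Gm28439 by −10.0%. mt-Co2 with Gm28661 changed by −16.3%. Of the 13 mitochondrially encoded mRNAs, 8 share or overlap at least 10% of their windows or bases, and 3 of these fell (median −0.21). Of the remaining 5, 2 fell (median −0.081). For nuclear subunits, 24 share or overlap at least 10% of their windows or bases with another gene, and 19 of these fell (median −0.22). Of the remaining 53, 35 fell and 2 rose (median −0.16).

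The falls were set beside those of other genes in the same length class, with a mean of at least 1000 normalized counts. Above that floor the levels were not matched. Nuclear subunits are short and abundant, with a median transcript length of 838 bases and a median level of 3203 normalized counts, against 2695 bases and 880 for all listed genes. Among genes outside the rule with a mean of at least 1000 normalized counts, 49.4% of the 350 genes with transcripts under 1000 bases were called lower, with a median log2 fold change of −0.11. Of the nuclear subunits in the same class 34 of 42 were called lower, with a median of −0.19. For transcripts of 1000 to 2000 bases, the share was 38.0% of 1268 genes outside the rule, with a median of −0.060, and 13 of 22 nuclear subunits fell, with a median of −0.16. From 2000 bases on, it was 25.6% of 5168 genes, with a median of 0.0045, beside 4 of 6 subunits with a median of −0.15.

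The counts were therefore also taken in other fits. With equal totals, which shifted the median of all listed genes to 0.051, 39 nuclear subunits fell and 5 rose, with a median of −0.13, beside 13.9% of all listed genes lower and 24.1% higher. With the trend on GC content, transcript length and level removed as fitted on genes outside the rule, 32 fell and 8 rose, with a median of −0.097, beside 18.0% lower and 17.8% higher. By class, the core of complex I had 2 falls and 1 rise with equal totals. Complex IV had 5 falls and 2 rises with equal totals and 3 falls and 4 rises with the trend removed, and complex III had 2 falls and 2 rises with the trend removed. The falls of 29 nuclear subunits were called in all 3 fits. They include Sdha, Sdhb and Sdhc, 13 subunits of complex I, 8 of complex V, Uqcrc1, Uqcrc2, Cox7a2, Cox7b and Cox6a2. The rises of Cox6b2, Uqcrfs1, Ndufaf1, Ndufaf4, Ndufaf6 and mt-Rnr1 were called in all 3 as well. Of the 54 falls, 42 were called in each of the 6 fits that left out a sample.

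For the mitochondrially encoded mRNAs, the calls changed with the correction for level. Equal totals left 5 of 13 lower, with a median of −0.15. With GC content, length and level accounted for none was called lower, 3 were called higher, and the median was −0.049. The 3 were mt-Nd1, mt-Nd2 and mt-Cytb, with log2 fold changes of 0.10, 0.20 and 0.16, while the value of mt-Co1 shrank to −0.049 and its call was lost (adjusted p = 0.126). In the same fit mt-Rnr2, Cox6a1, Cox8a, Cox7a2l and Atp5g2 were called higher, with log2 fold changes of 0.17, 0.19, 0.14, 0.14 and 0.076, mt-Tp was called lower (−0.33), and Cox6b1 was not called (adjusted p = 0.0708).

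**Figure D4:**
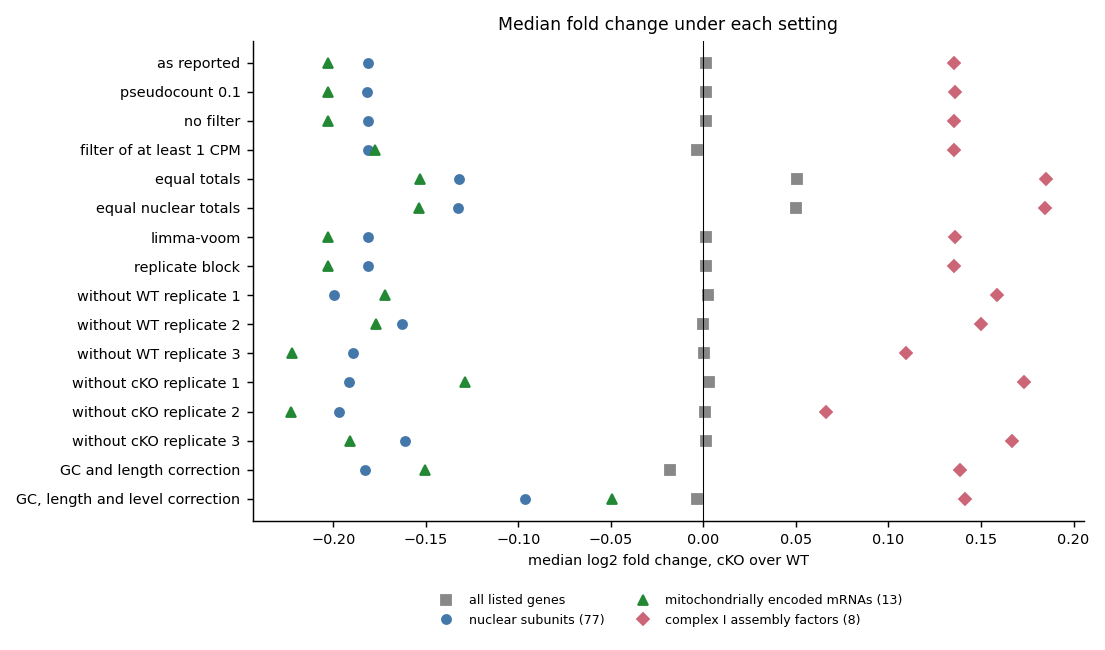
Median log2 fold change of nuclear subunits, mt mRNAs, complex I assembly factors and all listed genes under each setting. Nuclear subunits lie between −0.20 and −0.097 in all of them, and the mt mRNAs come closest to 0 with the correction for GC content, length and level.

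Other genes of mitochondrial energy metabolism were taken as lists, and their counts are to be read against the 17.8% of all listed genes called higher and the 18.8% called lower (24.1% and 13.9% with equal totals). Of 41 assembly factors outside the rule 9 rose (21.95%) and 4 fell (9.76%), with a median log2 fold change of 0.065, and with equal totals 11 rose and 2 fell. The largest rises were of Sdhaf3, a factor of complex II (149 to 255 normalized counts in the means, log2 fold change 0.78), and Uqcc3, a factor of complex III (841 to 1301, log2 fold change 0.64). The falls included Pet100, a factor of complex IV (−0.38), and Uqcc2, another factor of complex III (−0.31). A list of 18 genes covered mobile electron carriers and coenzyme Q synthesis, together with Cyc1 of complex III. None of these rose and 4 fell (22.2%, median −0.073), or 1 rose and 3 fell with equal totals. The falls were led by Coq8a (1724 to 1204, log2 fold change −0.52) and Etfa, which passes electrons from fatty acid oxidation (2947 to 2361, −0.32).

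Of 30 genes that keep and express mitochondrial DNA 10 rose (33.3%) and 4 fell (13.3%), with a median of 0.065. The transcription elongation factor Tefm (61.8 to 110.0 normalized counts, log2 fold change 0.83) and the helicase Twnk (377 to 606, 0.68) rose. Tfam, which packages mitochondrial DNA and starts its transcription, fell from 5958, 6208 and 5418 to 4522, 4629 and 4258 (log2 fold change −0.39), as did the RNA helicase Supv3l1 (−0.37). Of 78 genes with symbols of mitochondrial ribosomal proteins 22 rose (28.2%) and 17 fell (21.8%), with a median of 0.032. The 78 include the pseudogene Mrpl23-ps1, which was not called. With equal totals 28 rose and 9 fell. The changes ran from Mrpl51 (0.80) and Mrpl43 (0.66) down to Mrpl54 (−0.37) and Mrpl23 (−0.35). Of 16 regulators of mitochondrial biogenesis 5 rose (31.2%) and 2 fell (12.5%), with a median of 0.050. Ppargc1a, the coactivator PGC-1α, rose from 82.4, 94.0 and 99.5 to 182, 139 and 188 (log2 fold change 0.87), Pprc1 rose by 0.53, and Gabpb1, the partner of GABPA, fell by 0.40 on the log2 scale. The other rises were of Creb1 (0.21), Nrf1 (0.12, limma adjusted p = 0.0315) and Gabpa (0.11, limma adjusted p = 0.0446), and the other fall was of Sirt3 (−0.24). The call of Sirt3 was lost without WT replicate 3 or cKO replicate 3. Gabpb2 and Yy1 were not called.

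**Figure D5:**
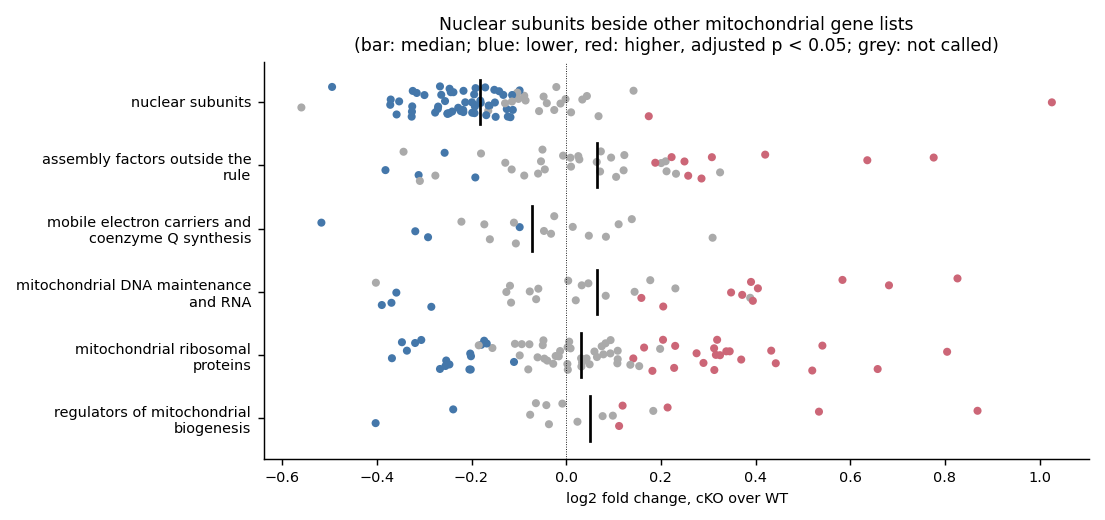
Log2 fold change of each nuclear subunit and of each gene in 5 further lists. Points are genes coloured by call, and the bar is the median of the list. The nuclear subunits have their median at −0.18, and the further lists have theirs between −0.073 and 0.065.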

How the data were processed

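NK cells from spleens of 3 WT and 3 cKO mRNA-seq samples were grouped by their labels. Paired-end reads of 150 bases were aligned by the authors to GRCm38 with HISAT2 and assigned to genes with featureCounts, and DESeq2 gave size factors and the authors' own comparison. The submitters' processing notes name HISAT2 2.0.5, featureCounts 1.5.0-p3 and DESeq2 1.16.1. Whether counting used strand is not given in the sources used here. The deposited sample columns are a signal, namely counts over the size factor of the sample. The authors' mean, log2 fold change and its error, test score, and p-value with its adjusted form stand beside them in the deposited table and were not used.

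Analysis was on log2(value + 1), so fold changes are on that scale and understate changes of genes with few counts. A filter of 1 or more in at least 3 samples removed no gene. The genotype effect was fitted for 14490 genes with limma 3.58.1 (R 4.3.3) with a trend of the variance. Tests were two-sided with Benjamini-Hochberg adjustment. The planned design allowed for raw counts, which the values are not. Lists were described by counts and medians, with no set test. Transcript lengths, GC content, positions and overlaps came from GENCODE M21 (103 of 104 members matched, all but Atp5sl), and promoters from RefSeq. Every value was a whole multiple of 1 step per sample, which gave the reads per sample on listed genes. Counting error is small for most members and larger for those under 100 normalized counts. Data were simulated for this comparison with 14490 genes and a replicate SD of 0.0384, taken from abundant genes. Of genes with a log2 change of 0.2, 89 of 100 were recovered, and with a change of 1, 100 of 100. There were 14 unchanged genes among 203 calls. Changed genes were drawn at middle to high counts only, and were far fewer than the calls in the data. Recovery of members with low counts, such as Cox6b2 and Ndufaf6, was not simulated.

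Named genes were Mettl3, the mitochondrially encoded mRNAs and rRNAs, complex II, isoform families, members of no complex, and in each class and list the largest changes (up to 2 rises and 2 falls, at 1 CPM or more and without overlap). Ndufaf4, Ndufs1, Ndufa12, Uqcrh, Uqcr10, Atp5a1, Atp5b, Atp5e, Ncr1, Tbx21 and Il2rb were named after their values were seen, as were Creb1, Nrf1, Gabpa, Gabpb2 and Yy1. The values of 1 member are not reported here, though it stays in the fits and counts. The members and lists were chosen with earlier results of these data known. Settings varied were the pseudocount (0.1), the filter (none, or 1 CPM), the scaling (equal totals over all or over nuclear genes), limma-voom, a block for replicate numbers, leaving out samples singly, correction for GC content and length, the same with level (added after seeing the data), and the study's limits of an unadjusted P under 0.05 with a log2 fold change beyond 1 in size.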

Additional observations from a re-analysis of the deposited data

How the results depend on the processing

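With limma-voom, with another pseudocount (0.1) and with either change of the filter, the counts of calls in each class and the medians of nuclear subunits and mt mRNAs stayed close to those reported. With equal totals over all genes or over nuclear genes, 5 and 5 nuclear subunits rose, complex IV had 5 and 5 falls, the median log2 fold change was −0.1319 and −0.1325 for nuclear subunits and −0.1531 and −0.1537 for mt mRNAs. Equal totals changed the sums by −6.83% for nuclear subunits, −8.11% for complex I, −13.1% for complex II, −2.30% for complex III, −2.66% for complex IV, −8.73% for complex V and −5.73% for mt mRNAs. These fits also gave values above 0 for mt-Cytb (0.02462 and 0.02402), Cox8a (0.03758 and 0.03697) and Atp5sl (0.01351 and 0.01291). By construction, they move all genes up. Correction for GC content and length gave a median of −0.1505 for mt mRNAs and 0.02681 for mt-Cytb.

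With level added to that correction, 8 nuclear subunits rose and 32 fell (15 in complex I, 2 in complex III, 3 in complex IV), with a median of −0.09653, while 3 mt mRNAs rose and 0 fell, with a median of −0.04923. It reversed mt-Cytb (0.1551), mt-Nd1 (0.1036), mt-Nd5 (0.02813), mt-Nd4 (0.01369), Cox4i1 (0.01694), Cox8a (0.1399), Ndufa4 (0.05396), Atp5g2 (0.07642) and Atp5g3 (0.01359). The cause was not tested. Under the study's limits 254 genes were called in all, with 1 nuclear subunit higher (Cox6b2), 0 lower, in complexes I, II, III, IV and V alike, 0 mt mRNAs lower and 0 assembly factors higher. All falls of nuclear subunits and mt mRNAs, and all rises of assembly factors, were smaller than the limit of fold change.

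Leaving out each sample gave 43 to 55 falls and 2 to 3 rises of nuclear subunits (lowest without cKO replicate 3), medians of −0.1998 to −0.1614, and 1 to 3 rises of assembly factors (1 without WT replicate 1). For mt mRNAs it gave 5 to 7 falls and medians of −0.2229 to −0.129. The log2 fold change ranged from −0.005879 to 0.05756 for mt-Nd2, from −0.03155 to 0.0771 for mt-Rnr2, from −0.06205 to 0.004276 for mt-Cytb, from −0.2964 to 0.0002236 for mt-Nd4l, from −3.468e-06 to 0.06482 for Cox7a2l, from −0.03177 to 0.01068 for Cox8a, from −0.1002 to 0.00313 for Atp5sl and from −0.1262 to 0.04739 for Atp5s, none of them called. Among results of single genes under alternatives, 934 kept direction and side of the threshold, 33 lost the call and 21 gained it with the same direction, and 30 changed sign, of which 4 also lost the call, 4 gained it and 22 were called in neither.

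Whether samples with the same replicate number are paired is not given in the labels. Deviations of samples with the same number correlated at −0.0396, 0.056 and 0.038, and those with different numbers at −0.0671 to 0.0351. With 3 samples per genotype, these values cannot decide it. With the replicate block 55 nuclear subunits fell and 2 rose, and 6 mt mRNAs fell, with mt-Nd1 added (adjusted p = 0.0076). Over all listed genes the block gave 2692 higher and 2851 lower, beside 2576 and 2731 without it. The tests on recovered whole reads that were planned with edgeR and DESeq2 were not run. With 3 samples per genotype, changes near 0.1 on the log2 scale lie at the limit of what was called, and members under 100 normalized counts (Cox7a1, mt-Nd3, mt-Nd4l and mt-Atp8) have intervals too wide to show changes of the size of the others.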

Other observations

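The nuclear copy of mt-Atp6 on chromosome 1, Gm10925 (24613974 to 24614651, − strand), held 589, 660.3 and 603 normalized counts in WT, 3770.0 in cKO replicate 1, and 575 and 642 in the other cKO replicates. Its neighbours in the same stretch did not show this, with Gm28437, the copy of mt-Co3, at 282 to 353 in WT and 192, 249 and 326 in cKO. mt-Atp6 itself was lowest in cKO replicate 1, at 374, beside 495 and 569 in the other cKO replicates and 519 to 607 in WT. The sum of mt-Atp6 and Gm10925 was 1133 to 1196 in WT and 4144, 1070.5 and 1211 in cKO. The gene that this 1 sample gave was chosen after its values were seen, and it is outside all counts of the report.

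Per kilobase of transcript, the mitochondrially encoded mRNAs differed widely in WT. mt-Co1 had 205150 normalized counts per kilobase, mt-Cytb 78377, mt-Nd1 75496 and mt-Nd6 15376, while mt-Co2 had 2079 and mt-Co3 619. The last 2 belong to the genes whose windows are nearly all shared with chromosome 1, and the order of levels among such genes cannot be read from these values.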
